A study of Mus musculus with 53 samples.

Results

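The cerebella of postnatal day 7 (P7) mice in which Tead1 and Tead2 were deleted with Atoh1Cre were compared with those of control mice, each library taken as 1 sum over the whole cerebellum. The sums came from split-pool single-cell RNA libraries: the unique molecular identifiers (UMIs) of each gene were added over all barcodes with at least 1000 UMIs and 500 genes, with no removal of doublets. This gave 5 libraries, 2 controls and 3 mutants, out of 10 at P7, with 40931 of the 79855 barcodes kept in the 10 libraries. The genes of the tables numbered 56860 by name, of which 24567 passed the filter on low counts and were tested. The library names mark the Tead1/2 controls as CTRL and the mutants as KO. The genotype is spelled out for the P2 animals of the same series as Atoh1Cre with Tead1fl/fl and Tead2fl/fl for mutants and as Tead1fl/fl with Tead2fl/fl, without Cre, for controls. Every Tead1/2 library, control or mutant, therefore carries both floxed alleles as far as the labels say. Each library held the cerebellum of 1 animal, dissociated with papain. Control 1 and mutant 1 held all lobules, and control 2 and mutants 2 and 3 lacked lobules IX and X. The other 5 libraries at P7, 2 Insm1fl/fl controls and 3 Atoh1Cre mutants for Insm1, were used for the shared estimate of spread and for comparison. The title of the series names the repression of muscle fate in neural lineages of the cerebellum as its subject.

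TEAD proteins bind DNA and carry the output of the Hippo pathway. The kinases LATS1 and LATS2 hold the coactivators YAP1 and TAZ (encoded by Wwtr1) out of the nucleus, and once released these join TEAD proteins at target genes. TEAD proteins also work with VGLL cofactors, and in skeletal muscle they read the MCAT element, CATTCC, in promoters of contractile genes. Atoh1 marks the rhombic lip, which gives rise to cerebellar granule cells, unipolar brush cells and the glutamatergic neurons of the cerebellar nuclei. At P7 granule progenitors still divide in the external granule layer under Sonic hedgehog while their daughters leave the cycle and migrate inward. Atoh1Cre is not expected to recombine Purkinje cells, interneurons, glia, vessels or meninges, and the whole sums mix all of these with the targeted lineage. A lower sum cannot tell fewer cells of a type from less RNA per cell.

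The 5 libraries held 6411 to 9726 kept barcodes and 90283508 to 211734358 UMIs. Median UMIs per kept barcode were 7930 and 8319 in controls and 6868, 9916 and 10178 in mutants. Mitochondrial UMIs made up 0.712% and 0.622% of the control libraries and 1.73%, 1.30% and 1.07% of the mutant libraries, and the groups did not overlap. A two-sided exact permutation test of that share gave p = 0.2, the smallest value that 2 libraries against 3 can give. Xist was at 1280 and 1283 CPM (UMI counts scaled to a common library total after TMM adjustment) in the controls, 1016 in mutant 3, and 5.57 and 4.55 in mutants 1 and 2, so the controls and mutant 3 are of one sex and the other two mutants of the other. No kept barcode name occurred in more than 1 library. All 5 carry the same batch label, and p-values measure the spread between animals within it.

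Changes were widespread and, among large ones, mostly upward. edgeR's quasi-likelihood test called 11943 of 24567 genes at a false discovery rate (FDR) under 0.05, or 48.6%, with 6355 genes higher in mutants (25.9%) and 5588 lower (22.7%). The median log2 change over all genes tested was 0.06. With library totals in place of TMM factors that median was 0.15, and 64.3% of calls were upward against 53.2%. Of the called genes, 3400 (13.8% of those tested) were at least 2-fold higher and 754 (3.07%) at least 2-fold lower. At 16-fold the counts were 552 higher and 8 lower, and 93 of the 552 belonged to 8 lists of skeletal muscle genes. At 128-fold there were 122 higher, 50 of them on those lists, and 1 lower. Because nearly 1 in 2 genes passed the test, counts of called members below are to be set against these shares.

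**Figure D1:**
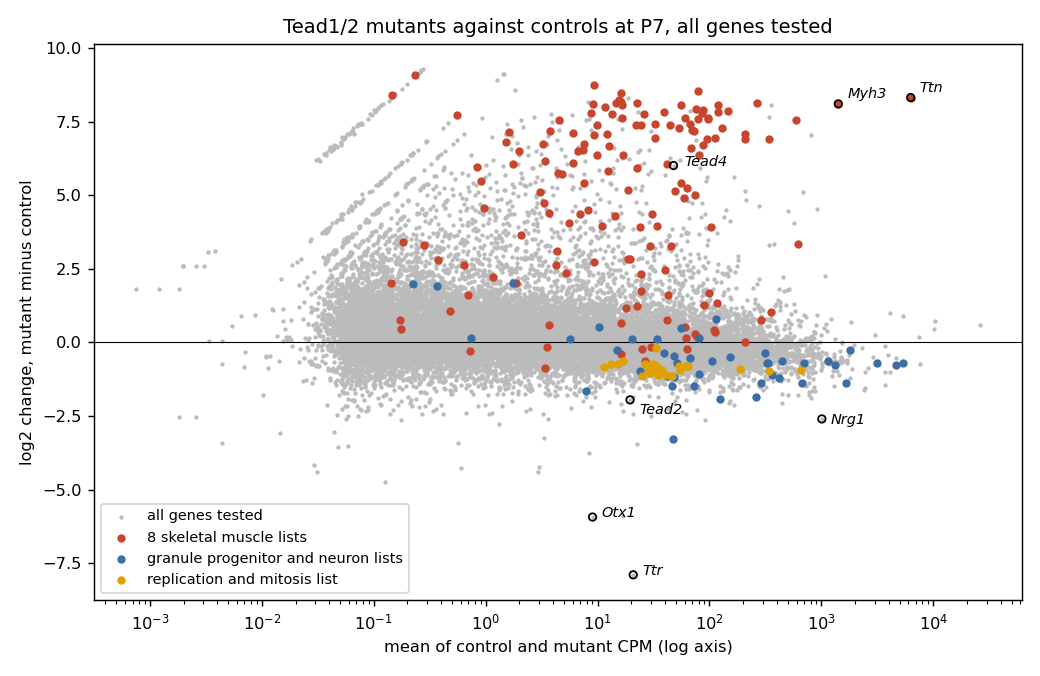
Each point is 1 of the 24567 genes tested, with its mean CPM over the control and mutant means on a log x axis and its log2 change (mutant minus control) on the y axis; red, blue and yellow points are genes of the skeletal muscle, granule cell and replication lists. The muscle genes lie mostly high above 0, with 126 of 147 called at a log2 change of at least 1, while all 24 replication genes lie below 0. The slanted lines of points at low CPM are genes with few or no control UMIs, whose fitted change depends on the prior count.

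Among the 4 TEAD genes, the RNA of the targeted genes moved in opposite directions. Tead2 was at 30.1 and 31.9 CPM in controls and at 9.15, 7.65 and 7.26 CPM in mutants, so every mutant was below both controls. Its log2 change was -1.95 ± 0.09 (FDR 7.32e-08). Here and below, ± gives the absolute log2 change divided by the square root of the quasi-likelihood F statistic. It is not a fitted standard error and can be too small where control UMIs are few. Tead1 was at 631 and 630 CPM in controls and at 1175, 1312 and 1125 CPM in mutants, a log2 change of 0.93 ± 0.07 (FDR 2.31e-06). A UMI of Tead1 can come from any part of the transcript and does not show whether the floxed part was present, so the Tead1 level does not check the deletion. Tead4, a paralog known for its part in myoblasts, went from 1.64 and 1.25 CPM to 95.2, 105 and 81.2 CPM, a log2 change of 6.01 ± 0.17 (FDR 6.33e-09). Tead3 was at 4.78 and 4.39 CPM in controls and 5.42, 5.78 and 6.07 CPM in mutants (log2 change 0.33, FDR 0.0175), and it was no longer called without control 2 (0.27) or with barcodes of at most 10000 UMIs (0.097, FDR 0.657).

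Several partners of TEAD were higher in the mutants. Of 13 tested genes of the Hippo core and TEAD cofactors, 8 were higher and 3 lower, with a median log2 change of 0.34. Under Insm1 deletion their median was 0.22, and the difference between the deletions was called for 1 of them. The coactivator Yap1 rose from 25.98 and 23.0 CPM to 50.8, 56.6 and 53.1 CPM (log2 change 1.13 ± 0.08, FDR 1.83e-06). Wwtr1, which encodes TAZ, rose from 29.3 and 21.5 CPM to 168, 192 and 151 CPM (2.74 ± 0.20, FDR 2.04e-06). Vgll2, a muscle cofactor of TEAD, had 4 and 1 UMIs in the controls and 378, 1047 and 481 in the mutants, or 4.14, 4.73 and 3.49 CPM. Vgll3 rose by 2.88 on the log2 scale, and by 0.66 (FDR 0.126, not called) with barcodes of at most 10000 UMIs. The kinase Lats2 rose by 0.76, while Lats1 was not called (-0.11, FDR 0.0605). Stk3 (-0.33), Stk4 (-0.17) and Nf2 (-0.34), which act upstream of LATS, fell, whereas Sav1 (0.22, FDR 0.0190) and Mob1b (0.60, FDR 0.000366) of the same list rose.

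Genes known as targets of YAP and TEAD were mostly higher in the mutants. Of 21 tested, 16 rose and 1, Crim1, fell, with a median of 1.13. Under Insm1 deletion the same list had a median of 0.82, and the difference between the deletions was called for 4 of the 21. Ankrd1, a muscle ankyrin repeat gene, had 1 and 0 UMIs in the controls against 364, 505 and 325 in the mutants. Ccn2, a matricellular gene, was at 0.249 and 0.226 CPM in controls and 2.48, 2.50 and 2.77 CPM in mutants (log2 change 3.43 ± 0.26, FDR 3.09e-06), and with barcodes of at most 10000 UMIs its log2 change was 2.01. Myof, a ferlin that also serves myoblast fusion, rose by 2.85. Igfbp3 rose by 2.43, and with barcodes of at most 10000 UMIs its value was 0.73 (FDR 0.108). Ccn1 (1.23), Amotl2 (1.52), Ajuba (1.12) and Ptpn14 (1.13) rose as well. Crim1 went from 88.2 and 82.4 CPM to 48.7, 45.9 and 45.8 CPM (-0.87, FDR 3.72e-06). Rbms3, Foxf2, F3 and Fjx1 were not called.

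Skeletal muscle genes were prominent among large rises: 11 of the 12 largest by fold were on the muscle lists, among called genes with at least 5 CPM in mutants and no overlap between the groups. The 8 lists, from myogenic regulators to muscle metabolism, named 150 genes, of which 147 were tested, 133 rose and 4 fell (Chodl, Nphs1, Tpm3 and Sypl2). The median log2 change over the 147 was 5.83, against 0.06 over all genes tested, and 126 rose at least 2-fold. Their summed level was 1870 and 1851 CPM in the controls and 33360, 30570 and 21950 CPM in the mutants. The series was about muscle fate and the lists were drawn up with that known, so these counts describe the change and are no independent test of its theme.

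Regulators of the myogenic program changed unevenly. Of 19 tested, 13 rose, with a median of 1.02. Myog, which drives the differentiation of myoblasts, was at 0.498 and 0.584 CPM in the controls and 62.1, 115 and 90.3 CPM in the mutants, a log2 change of 7.37 ± 0.32 (FDR 5.79e-08). Myod1, the determination factor, rose from 0.300 and 0.410 CPM to 12.4, 17.3 and 14.6 CPM (5.41 ± 0.20, FDR 2.51e-08). Myf6 had 2 and 3 UMIs in the controls and 322, 805 and 333 in the mutants. Myf5 had 0 UMIs in both controls and 23, 83 and 35 in the mutants, which is at least 22.9-fold higher in mean CPM when the control is set to 3 UMIs over both libraries. Six4, a homeobox gene of the list, rose by 2.74. Mef2c, a cofactor of MYOD1 and MYOG, rose from 115 and 107 CPM to 1198, 1234 and 909 CPM (3.33 ± 0.15, FDR 6.49e-08). The progenitor genes of embryonic muscle were not called in the sums. Pax3 was at 222 and 192 CPM in controls and 228, 180 and 225 CPM in mutants (0.03, FDR 0.863). With that level in controls, the sums cannot show whether Pax3 changed in a small share of cells. Pax7 stayed under 0.3 CPM in all 5 libraries (FDR 0.366) and Lbx1 was not called (-0.16, FDR 0.574).

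The promoter windows of 3 genes are printed to show the letters that TEAD and myogenic factors are known to read. Myog was chosen by name. Myh7 and Ttn were taken from the 12 largest rises because a window of theirs held CATTCC. The window with the most CATTCC matches was shown, so these matches were fixed by the choice and are not typical of the genes that rose. The windows run from 250 bases before to 50 after the start site, from RefSeq on build GRCm38.p6. Capitals mark matches, on either strand, to CATTCC (its reverse complement reads GGAATG) and to CANNTG, the E-box read by MYOD1 and MYOG. Myog lies at chr1:134289754-134290053 on the plus strand and holds 2 E-boxes, which start 138 and 12 bases before the start site, and no CATTCC. Myh7, a slow myosin heavy chain, is shown by 1 of its 2 windows, chr14:54994577-54994876 on the minus strand, with a CATTCC match 201 bases before the start and E-boxes 106 bases before and 15 after it. Ttn, which encodes titin, lies at chr2:76982498-76982797 on the minus strand, with CATTCC 11 bases after the start and an E-box 138 before it.
Myog: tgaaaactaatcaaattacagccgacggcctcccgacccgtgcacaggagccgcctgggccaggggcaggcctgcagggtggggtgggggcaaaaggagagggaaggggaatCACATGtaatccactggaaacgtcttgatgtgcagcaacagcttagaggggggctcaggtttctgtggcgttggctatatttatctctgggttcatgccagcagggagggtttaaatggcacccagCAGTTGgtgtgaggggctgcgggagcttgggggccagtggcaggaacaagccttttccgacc
Myh7: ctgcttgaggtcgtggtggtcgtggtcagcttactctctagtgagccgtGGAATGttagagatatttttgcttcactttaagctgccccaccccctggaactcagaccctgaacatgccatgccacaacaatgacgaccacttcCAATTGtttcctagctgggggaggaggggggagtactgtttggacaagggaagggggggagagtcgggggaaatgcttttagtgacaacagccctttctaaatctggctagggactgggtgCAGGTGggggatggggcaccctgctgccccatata
Ttn: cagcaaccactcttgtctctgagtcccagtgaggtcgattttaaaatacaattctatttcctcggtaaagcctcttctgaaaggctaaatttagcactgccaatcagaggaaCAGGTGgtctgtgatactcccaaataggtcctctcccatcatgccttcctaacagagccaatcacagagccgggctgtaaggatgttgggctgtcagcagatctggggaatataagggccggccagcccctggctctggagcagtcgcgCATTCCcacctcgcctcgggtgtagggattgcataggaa
CATTCC was in 21.4% of the 117 windows of the muscle list genes that rose, in 14.7% of all 32851 windows, and in 10.8% of the windows of genes that fell. CAGCTG, the E-box form preferred by MYOD1 and MYOG, was in 38.5% of the 117 windows, 16.3% of all windows and 14.4% of those of genes that fell. Among muscle list genes at least 16-fold higher, 49.4% of 77 windows held CAGCTG and 24.7% held CATTCC. Any CANNTG was common everywhere, at 80.3% of the 117 windows and 72.3% of all. Windows matched 97 of the 133 genes, and a match is a description of letters with no evidence of binding.

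Genes that join and fuse myoblasts rose with the differentiation factors. Of 13 tested, 10 rose and 1 (Nphs1) fell, with a median of 1.67. Mymk, which encodes the fusogen myomaker, was at 0.146 and 0.174 CPM in controls and 43.6, 49.4 and 41.6 CPM in mutants (8.14 ± 0.16, FDR 3.74e-09). Its partner Mymx rose from 0.139 and 0.184 CPM to 5.87, 11.3 and 8.71 CPM (5.76 ± 0.36, FDR 8.33e-07). Cdh15, the M-cadherin of muscle, rose by 5.93, the caveolin Cav3 by 7.08 and the membrane repair gene Dysf by 3.96. Itga7 and Adgrb1, which neural tissue also expresses, were not called.

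The 3 lists of contractile genes had medians between 6.82 and 7.38. All 20 genes of the thick filament list rose at least 2-fold, with a median of 7.20 (7.04 with Myh2 at its lower bound). Their summed level was 36.0 and 38.6 CPM in the controls and 6015, 5636 and 3812 CPM in the mutants. Myh3, the embryonic myosin heavy chain, rose from 9.15 and 11.4 CPM to 3202, 3217 and 2047 CPM (8.11 ± 0.30, FDR 2.50e-08). Myh8, the perinatal chain, rose from 1.66 and 2.13 CPM to 697, 539 and 362 CPM (8.15 ± 0.39, FDR 1.28e-07). Myh7, whose promoter is printed above, rose from 0.0732 and 0.113 CPM to 45.9, 26.7 and 24.9 CPM (8.48 ± 0.42, FDR 1.52e-07). Of the adult fast chains, Myh4 reached 8.04, 11.9 and 2.71 CPM, Myh1, with 0 and 1 control UMIs, 1.72, 0.972 and 0.631 CPM, and Myh2, with 0 UMIs in both controls, 36, 120 and 66 UMIs, at least 36.8-fold higher. The myosin heavy chain genes are near-identical neighbours in places, and how shared reads were assigned is not given in the sources used here. Myom2, a cross-linker of the M band, rose from 0.359 and 0.502 CPM to 190, 164 and 114 CPM (8.53 ± 0.29, FDR 1.33e-08).

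Of 19 thin filament genes, 17 rose, 1 (Tpm3) fell, and Tnni3, the cardiac troponin I, was at 0.754 and 0.861 CPM in controls and 0.559 to 0.751 CPM in mutants (FDR 0.296). The median was 7.38. Skeletal actin, Acta1, rose from 0.637 and 0.831 CPM to 202, 181 and 140 CPM (7.91 ± 0.27, FDR 1.40e-08). Cardiac actin, Actc1, which fetal skeletal muscle also expresses, rose from 1.02 and 0.943 CPM to 190, 227 and 166 CPM (7.62 ± 0.16, FDR 4.13e-09). The troponin T genes Tnnt1 (7.59), Tnnt2 (7.85) and Tnnt3 (7.82) rose together, as did the leiomodin Lmod2 (7.79) and nebulin, Neb (7.55). Tpm3, which most cells express, fell by 0.22.

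All 27 genes of the Z disc, titin and filament turnover list rose at least 2-fold (median 6.82). Ttn, the giant spring of the sarcomere and the gene with the largest rise in CPM of all, was at 35.5 and 42.9 CPM in controls and at 15080, 13360 and 9120 CPM in mutants (8.32 ± 0.29, FDR 1.79e-08). Ttn alone made up 1.53%, 1.40% and 0.972% of all UMIs of the mutant libraries, against 0.00348% and 0.00414% in controls. Its transcript is among the longest known, and where counting includes reads along the whole body a long gene gathers more UMIs, so its CPM is no measure of its molar share. The Z disc genes Myot (8.22), Myoz2 (8.06) and Xirp1 (8.11), the intermediate filament Des (7.29) and the Kelch genes Klhl31 (8.08) and Klhl41 (6.92) rose together.

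**Figure D2:**
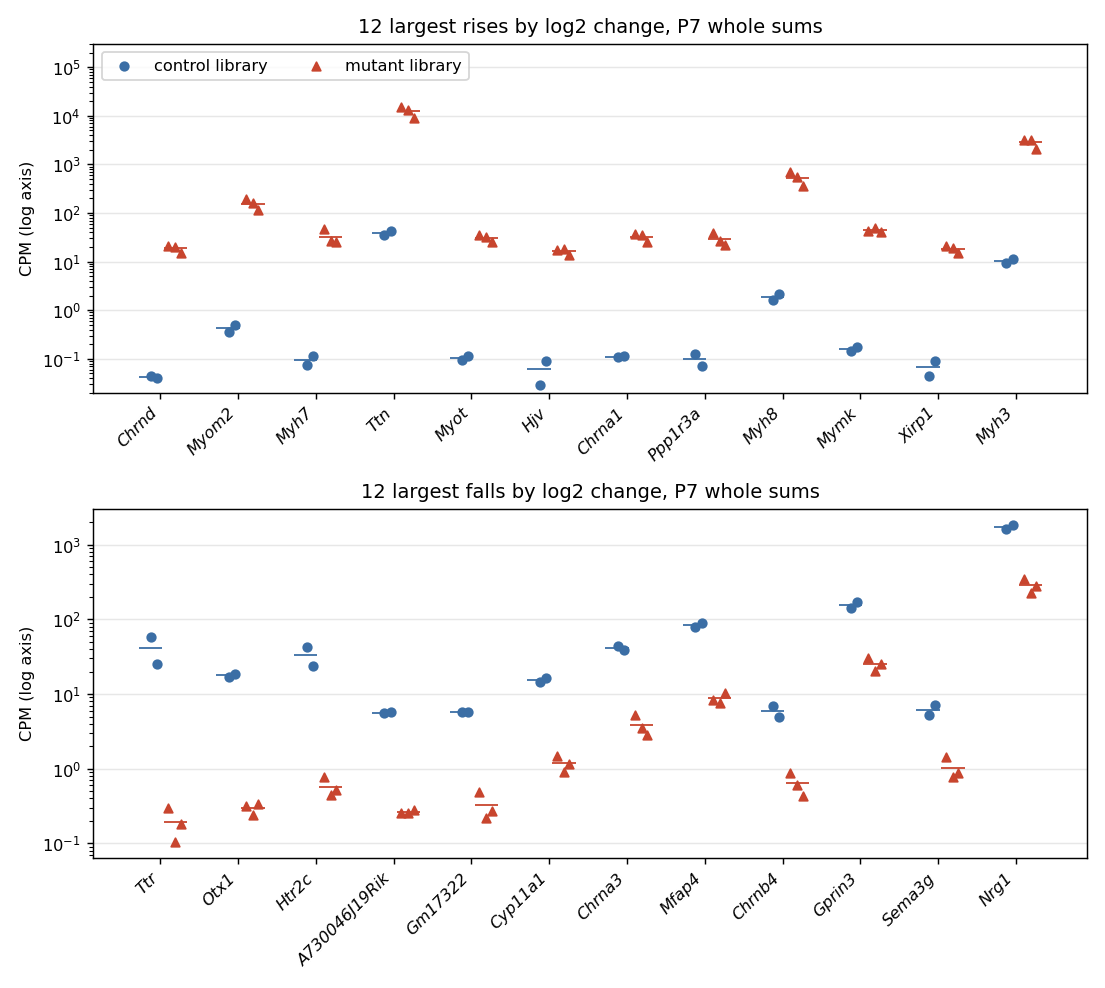
CPM (log axis) of the 12 genes with the largest rise and the 12 with the largest fall in log2 change among called genes with at least 5 CPM in the higher group; circles are the 2 control libraries, triangles the 3 mutant libraries and bars the group means. Genes without overlap between the groups were chosen, so none shown has one, and mutant levels of Ttn and Myh3 exceed 2000 CPM in every mutant.

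Genes of excitation-contraction coupling, the motor endplate and muscle energy metabolism rose in the same libraries. In the coupling list 20 of 22 rose and 1 fell (median 6.10). Ryr1, the calcium release channel, went from 3.27 and 3.54 CPM to 477, 457 and 306 CPM (6.93 ± 0.26, FDR 2.61e-08), and triadin, Trdn, from 0.915 and 0.841 CPM to 294, 236 and 180 CPM (8.07 ± 0.25, FDR 7.68e-09). All 11 endplate genes rose (median 4.75). Chrnd, a subunit of the muscle acetylcholine receptor, had 6 and 4 UMIs in the controls and 20.6, 20.1 and 15.3 CPM in the mutants. The alpha subunit Chrna1 rose by 8.16 and the fetal gamma subunit Chrng by 7.99, while Chrne, which replaces it in adult muscle, reached 0.504, 0.434 and 0.588 CPM. In the metabolic list 15 of 16 rose (median 5.26), among them the muscle creatine kinase Ckm (7.63), the phosphatase subunit Ppp1r3a (8.15), phosphoglycerate mutase Pgam2 (6.74) and myoglobin, Mb (6.36). Outside the lists, Hjv, hemojuvelin, which skeletal muscle expresses, rose from 0.0293 and 0.0923 CPM to 17.3, 18.04 and 13.9 CPM (8.17).

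The muscle UMIs sat in barcodes with many UMIs. Barcodes above 10000 UMIs held 68.0%, 86.1% and 81.4% of all UMIs in the mutants, and 89.8%, 94.9% and 92.0% of the UMIs of the muscle lists. In the controls the shares were 76.0% and 78.0% of all UMIs and 74.9% and 77.8% of the muscle list UMIs. With barcodes of at most 10000 UMIs alone, the median over the muscle list genes that could be tested there was 3.82. The median of 5.83 was over the 147 genes, so these medians are not over the same genes. There Ttn rose by 6.29, Myh3 by 5.60, Myog by 6.71 and Mymk by 7.14. The reduction was larger for Myh7 (4.28), Myot (4.32), Acta1 (4.32), Ckm (4.51), Myh8 (4.97), Tnnt3 (5.03), Trdn (5.204), Chrnd (5.78) and Pgam2 (3.20). Of the named muscle list genes that rose, the 32 that could be tested at this limit were still called, and Myf6 could not be tested there. The 32 had changes from 2.12 to 7.45, and for these 9 the value over all kept barcodes was more than 1.5 times that at the limit. Doublets were not removed, and their part in this difference was not tested.

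Genes of other tissues were measured beside these. Of 3 cardiac genes tested (median 3.21), Myh6 rose from 0.146 and 0.0718 CPM to 6.40, 6.98 and 3.72 CPM (5.64 ± 0.38, FDR 1.26e-06; 2.51 with barcodes of at most 10000 UMIs) and Gata4 reached 0.427, 0.579 and 0.298 CPM. Nkx2-5, Tbx5, Tbx20, Hand1, Hand2, Myl7 and Nppb had too few counts to be tested. Of 11 smooth muscle genes 7 rose and none fell (median 0.63). Acta2, smooth muscle actin, which early skeletal muscle also makes, rose from 0.351 and 0.461 CPM to 31.8, 35.2 and 21.6 CPM (6.20 ± 0.26, FDR 4.70e-08). Myocd (2.6), Lmod1 (1.81) and Smtn (1.61) of the same list also rose. With barcodes of at most 10000 UMIs Myocd was at 2.07 and Smtn at 1.22, and Lmod1 was not called (0.74). The smooth muscle genes Myh11, Tagln and Cnn1 were not called. Among cartilage genes 4 of 14 rose and 2 fell, where 25.9% of all genes rose and 22.7% fell, with Col2a1 and Acan not called. Of 6 epidermis genes tested 2 rose and none fell (median 0.87). Trp63, a p53 relative known from epidermis, rose from 1.19 and 1.07 CPM to 95.1, 93.1 and 72.1 CPM (6.26 ± 0.18, FDR 6.99e-09; 3.66 with barcodes of at most 10000 UMIs). Perp rose by 0.85, and by 0.54 (FDR 0.167, not called) with barcodes of at most 10000 UMIs. Krt5, a keratin of the same layer, had no UMI in any of the 5 libraries, and Krt14, Dsg3 and Ivl were too low to test.

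Granule cell progenitor genes were lower in the mutants. Of 20 tested, 17 fell, 1 rose, and the median was -0.70. Their summed level was 5541 and 5545 CPM in controls and 3050, 2986 and 3106 CPM in mutants. Atoh1, which keeps these cells in the progenitor state, fell from 12.3 and 11.5 CPM to 2.72, 4.67 and 3.86 CPM (-1.65 ± 0.19, FDR 5.03e-05). The hedgehog mediators Gli2 (-1.36) and Gli1 (-0.98), their targets Mycn (-1.18) and Ccnd2 (-1.23), and the homeobox gene Barhl1 (-1.47) fell together, whereas Hhip, a hedgehog target that binds the ligand, rose by 0.51. Ccnd1 was not called (0.16, FDR 0.549). Mfap4, a matrix gene on the list, fell from 79.3 and 90.8 CPM to 8.39, 7.51 and 10.4 CPM (-3.28 ± 0.14, FDR 6.49e-08), and Sfrp1, a secreted Wnt inhibitor, from 204 and 186 CPM to 47.2, 46.0 and 62.3 CPM (-1.91 ± 0.11, FDR 5.64e-07).

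All 24 genes of the replication and mitosis list fell, with a median of -0.87, 5 of them at least 2-fold. Mki67, a marker of cycling cells, was at 882 and 844 CPM in controls and 456, 416 and 491 CPM in mutants (-0.93 ± 0.07, FDR 3.98e-06). The helicase subunit Mcm5 (-1.16), the mitotic kinase Aurkb (-1.16), the clamp Pcna (-1.12) and cyclin Ccna2 (-1.09) were among the 5 largest falls of the list. Inhibitors of cyclin-dependent kinases split. Cdkn1c, which encodes p57 and is known to rise when myoblasts leave the cycle, went from 7.36 and 6.07 CPM to 238, 434 and 310 CPM (5.60 ± 0.30, FDR 2.34e-07). Cdkn1a, which encodes p21, went from 3.88 and 4.02 CPM to 128, 127 and 100 CPM (4.91 ± 0.12, FDR 5.44e-09). Cdkn1b, the p27 gene of postmitotic granule cells, fell from 97.2 and 109 CPM to 53.5, 60.4 and 62.8 CPM (-0.81 ± 0.09, FDR 5.81e-05), and Cdkn2c fell by 1.04.

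Cdkn1a is also a target of p53, and that list was mixed. Of 14 p53 targets 6 rose and 3 fell (median 0.19), where 25.9% of all genes rose and 22.7% fell. Pmaip1, which encodes the death effector NOXA, rose from 2.05 and 1.90 CPM to 59.7, 52.4 and 45.9 CPM (4.74 ± 0.15, FDR 9.01e-09). Ccng1 (1.72) and Plk2 (1.07) rose, and Phlda3 rose by 2.45. With barcodes of at most 10000 UMIs Pmaip1 was at 2.39, Ccng1 at 0.75 and Phlda3 at 1.25 (FDR 0.136, not called). The canonical targets Mdm2 (0.15, FDR 0.111) and Bbc3 (-0.20, FDR 0.281) were not called and Bax fell by 0.33.

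Markers of granule neurons fell for the most part. Of 24 tested, 14 fell and 4 rose, with a median of -0.62 and summed levels of 24630 and 25900 CPM in controls against 16070, 14720 and 14790 CPM in mutants. Neurod1, the factor of early granule neurons, fell from 406 and 437 CPM to 128, 171 and 182 CPM (-1.39 ± 0.14, FDR 2.48e-05). Cntn2, an adhesion gene of newly postmitotic granule cells, fell by 1.85, Nhlh1 by 1.47, and Rbfox3 (NeuN) fell by 1.38. The 4 that rose were Grin2c (2.02), Gabra6 (1.99), Gabrd (1.91) and Chn2 (0.81). The first 3, receptor subunits of mature granule cells, were below 3 CPM in every library. Slc17a7 and Etv1 were not called.

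INSM1, the other factor studied in the series, represses transcription with KDM1A, RCOR and HDAC proteins. Insm1 was at 75.2 and 80.0 CPM in the controls and 28.1, 55.0 and 54.3 CPM in the mutants, lower in all 3 mutants, but the difference did not pass the test (-0.76 ± 0.35, FDR 0.0962). Of 12 genes on that list 5 fell, among them Rcor2 (-1.36), Gse1 (-0.83) and Kdm1a (-0.52), and 2 rose. Of all genes tested 22.7% fell and 25.9% rose. One of the risers was Rest, the repressor of neuronal genes, which went from 13.7 and 12.2 CPM to 38.7, 43.2 and 38.8 CPM (1.63 ± 0.12, FDR 2.33e-06).

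The 12 largest falls by fold were a mixed group. Ttr, transthyretin, the main secreted protein of the choroid plexus, went from 58.0 and 24.9 CPM to 0.296, 0.104 and 0.181 CPM (-7.90 ± 0.41, FDR 2.17e-07). Htr2c, a serotonin receptor that the choroid plexus expresses strongly, fell from 42.9 and 23.8 CPM to 0.767, 0.439 and 0.523 CPM (-5.91 ± 0.29, FDR 1.43e-07). With barcodes of at most 10000 UMIs the log2 change was -4.03 for Ttr and -2.22 for Htr2c. Of 8 choroid plexus markers, Ttr, Kcne2, Clic6 and Kl fell, Folr1 rose (3.03), and Otx2, Aqp1 and Kcnj13 were not called. The summed level of the 8 was 98.6 and 58.7 CPM in controls and at most 50 CPM in mutants, and none was at 0 in any library. Without Ttr the sum of the other 7 was 40.7 and 33.8 CPM in controls and 49.7, 44.8 and 46.3 CPM in mutants. It was higher in every mutant, so the lower sum of the 8 rested on Ttr. The 7 include Folr1, which rose, and Otx2, which is also on the unipolar brush cell list. Their sum therefore does not measure the choroid plexus alone. Clic6 (-0.51) and Kl (-0.39) were not called with barcodes of at most 10000 UMIs. Clic6 was not called without control 1 (-0.75), and Kl was not called without control 1 (-0.51), control 2 (-0.83), mutant 1 (-0.68) or mutant 2 (-0.53). How much choroid plexus each dissection kept was not tested. Otx1, a homeobox gene, fell from 16.9 and 18.6 CPM to 0.318, 0.240 and 0.334 CPM (-5.93 ± 0.18, FDR 7.80e-09). The neuronal nicotinic subunits Chrna3 (44.5 and 38.6 to 5.28, 3.52 and 2.83 CPM) and Chrnb4 (6.90 and 4.99 to 0.876, 0.601 and 0.436 CPM), which are neighbours in 1 gene cluster, fell by 3.44 and 3.26. Nrg1, neuregulin 1, fell from 1627 and 1838 CPM to 352, 227 and 278 CPM (-2.60 ± 0.20, FDR 3.59e-06). Its receptor Erbb4 was among the 5 genes with the largest fall in CPM, from 4794 and 5028 to 2539, 2386 and 2353 CPM (-1.02). The others of those 5 were Dcc, Nav2, Lsamp and Nfib. The steroid enzyme Cyp11a1 (-3.75), Gprin3 (-2.63), Sema3g (-2.61), A730046J19Rik (-4.42) and Gm17322 (-4.22) completed the 12 with Mfap4.

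Among the other neuronal types, the unipolar brush cell and cerebellar nuclei lists share Slc17a6, the vesicular glutamate transporter VGLUT2, which fell from 107 and 99.5 CPM to 28.6, 13.2 and 15.5 CPM (-2.44 ± 0.36, FDR 0.000286). Of 9 unipolar brush cell genes 4 rose and 2 fell, with a median of 0.44. Their summed level was 664 and 703 CPM in controls and 879, 819 and 761 CPM in mutants. Eomes, the factor that defines unipolar brush cells, fell by 1.28, while Lmx1a (-0.96, FDR 0.114) and Otx2 (0.44, FDR 0.137) were not called. Cdh22 rose by 1.38. Calb2 rose by 0.92 but was not called without control 1 (0.82). Of the nuclei markers Lhx9 and Lhx2 fell and Pou4f1 rose from 0.923 and 0.872 CPM to 4.34, 5.45 and 4.59 CPM (2.42). Lhx9 was no longer called without control 2 (-0.48), without mutant 2 (-1.02), with a term for sex (-1.13) or with barcodes of at most 10000 UMIs (-0.61). Purkinje markers, outside the targeted lineage, showed 1 rise (Pvalb, which muscle also expresses, 1.60) and 3 falls in 14 (Lhx1, Foxp2 and Dner), with Pcp2, Calb1 and Car8 not called. Over all genes tested 25.9% rose and 22.7% fell. In the interneuron list 5 of 13 fell, none by 2-fold, and Sorcs3 rose. Among those 5, Gad1 was called under 12 of 17 alternatives, Kirrel2 under 10 and Nxph1 under 16. With barcodes of at most 10000 UMIs Gad1 was at 0.062, and it was not called without control 1 (-0.34) or control 2 (-0.38). Kirrel2 was not called without control 1 (-0.37), control 2 (-0.41), mutant 1 (-0.33) or mutant 2 (-0.33).

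Glia, vessels and meninges had list medians between 0.09 and 1.08. Of 16 astrocyte and Bergmann glia genes 9 rose and 2 fell (median 0.44). Gfap rose by 0.79 but was not called without control 1 (0.84), control 2 (0.75) or mutant 3 (0.50). Gja1 (0.74) was not called without control 1 (0.80) or control 2 (0.69), nor S100b (0.85) without control 1 (0.76), while S100b was at 1.33 and called with barcodes of at most 10000 UMIs. Where 25.9% of all genes rose and 22.7% fell, 5 of 15 oligodendrocyte genes rose and 1 fell. Of these Olig2 (0.71) was called under 10 of 17 alternatives and was lost without control 1 (0.70), control 2 (0.72) or mutant 3 (0.40), and Sox10 (0.80) and Enpp6 (0.73) were lost without control 1 (0.60 and 0.59). All 3 were called and larger with barcodes of at most 10000 UMIs, at 1.28 for Olig2, 1.26 for Sox10 and 1.15 for Enpp6. Bcas1, of the same list, rose from 144 and 158 CPM to 295, 259 and 285 CPM (0.89, FDR 5.65e-06). It was called under all 17 alternatives. Of 12 microglial genes 3 rose, where 25.9% of all genes did. Cx3cr1 was among them, but its groups overlapped and it was called under 6 of 17 alternatives, with losses without control 1 (0.59), control 2 (0.46), mutant 2 (0.49) or mutant 3 (0.33). Limited to barcodes of at most 10000 UMIs, Tmem119 was lost (0.83, against 1.03), whereas Cx3cr1 (0.92) and P2ry12 (1.25, against 0.96) were called, and P2ry12 was called under all 17 alternatives. Of 10 endothelial genes 8 were not called, including Cldn5, Pecam1 and Flt1. Slco1a4, an organic anion transporter of brain vessels, fell from 22.9 and 22.7 CPM to 9.16, 8.38 and 8.42 CPM (-1.40 ± 0.11, FDR 3.20e-06). Vwf rose by 0.99 but was not called without control 2 (0.64), mutant 1 (0.95) or mutant 2 (0.94). Nor was it called with a term for sex (0.74) or a replicate block (0.98), and it was at 1.67 with barcodes of at most 10000 UMIs. Of 8 pericyte genes 4 rose, led by Abcc9, a subunit of the potassium channel of smooth and skeletal muscle, from 8.49 and 5.25 CPM to 71.8, 76.2 and 52.6 CPM (3.28 ± 0.27, FDR 4.77e-06), with Rgs5 and Kcnj8 not called. Anpep (0.85) and Pdgfrb (0.61), also among the 4, were each called under 10 of 17 alternatives. Anpep was not called without control 1 (1.04), control 2 (0.70) or mutant 3 (0.47), and Pdgfrb was not without control 2 (0.38), mutant 2 (0.67) or mutant 3 (0.48). Of 11 meningeal fibroblast genes 9 rose and 1 (Islr) fell. Igf2, a growth factor that fetal muscle also makes, rose from 84.2 and 65.0 CPM to 1735, 1979 and 1523 CPM (4.55 ± 0.15, FDR 1.43e-08), and the collagens Col1a1 (1.37), Col1a2 (1.24) and Col3a1 (0.81) rose as well, each highest in mutant 3. The globin genes Hba-a1 (-1.46), Hba-a2 (-1.48) and Hbb-bs (-1.37) passed the test, but near-identical copies share reads, and each was called under only 8 of 17 alternatives. They were lost without control 1 (-0.94, -0.90 and -0.92), mutant 1 (-1.17, -1.18 and -1.08) or mutant 3 (-1.32, -1.33 and -1.26), and over all deposited barcodes they were at -0.46, -0.44 and -0.62.

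**Figure D3:**
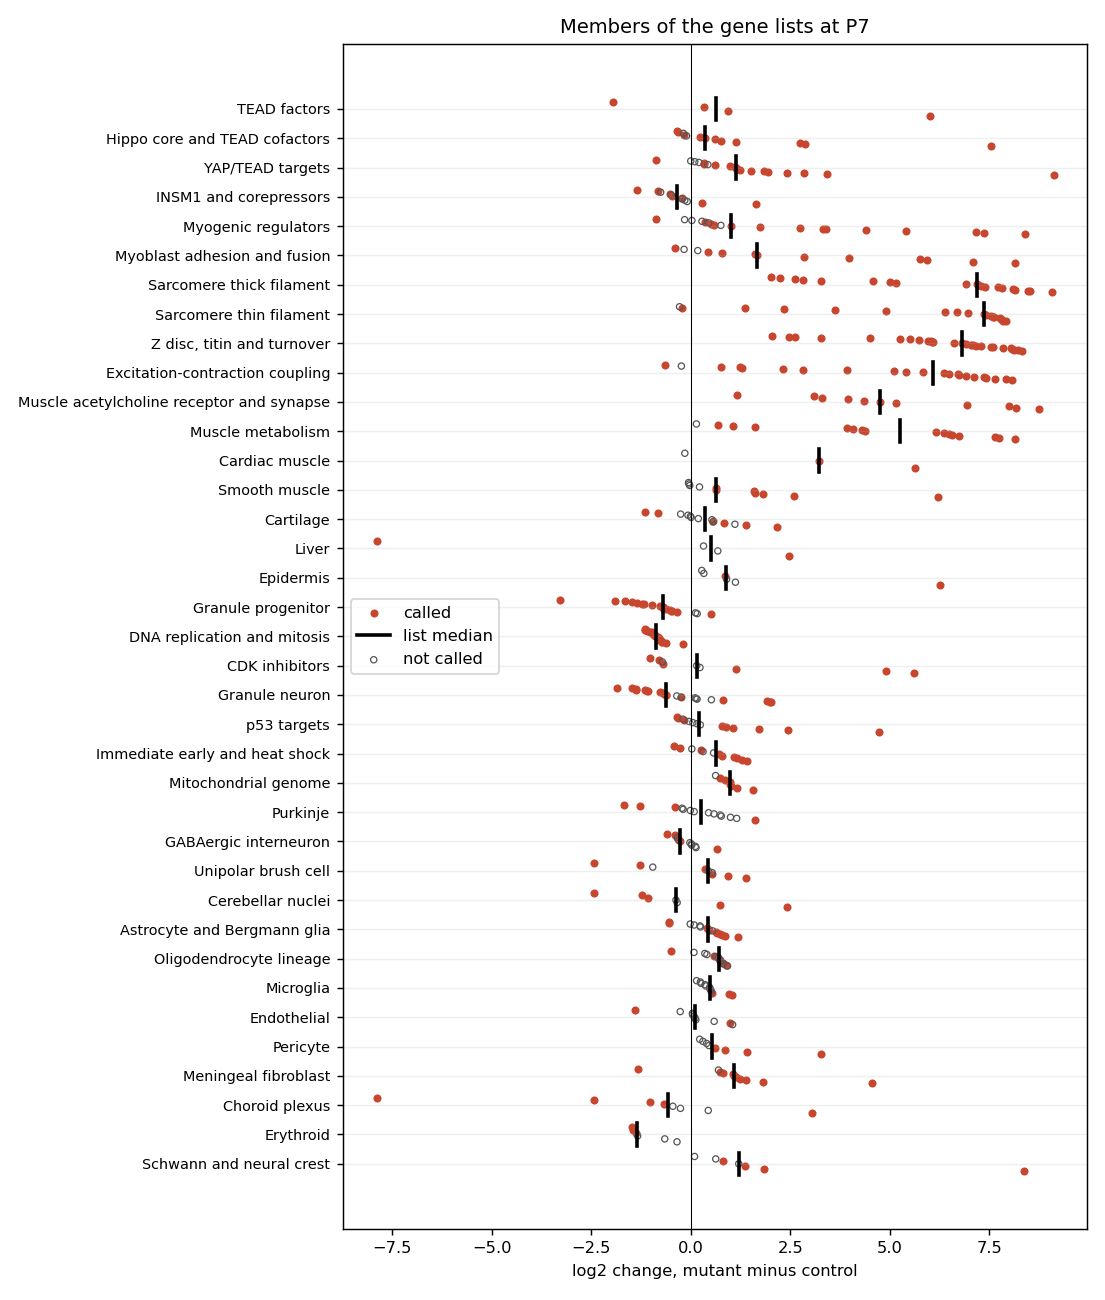
Log2 change (mutant minus control) of every tested member of 37 gene lists at P7; filled points passed the test, open points did not, and bars are list medians. The contractile lists reach medians near 7, the granule cell and replication lists lie below 0, and most lists of other cell types straddle 0. The points of Ankrd1, Myf5, Myh1, Myh2 and Foxd3 rest on 0 or 1 control UMI and their position depends on the prior count.

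Transcripts that mark stress or RNA quality shifted as well. Of 8 tested genes of the mitochondrial genome 7 rose (median 0.98), with summed levels of 376 and 360 CPM in controls and 980, 664 and 570 CPM in mutants. Across the mutants that order is the order of the mitochondrial share of UMIs, of which these genes are a part, so the orders are not independent. mt-Rnr2 rose from 3967 and 3449 CPM to 9008, 6682 and 5206 CPM (0.91 ± 0.20, FDR 0.00324). The ribosomal entry Rn18s-rs5 rose from 21590 and 20460 CPM to 30450, 31820 and 32270 CPM (0.58), and Malat1 by 0.45. With barcodes of at most 10000 UMIs Rn18s-rs5 was no longer called (0.18), mt-Rnr2 was at 0.43 and the median of the mitochondrial list was 0.52. Of 12 immediate early and heat shock genes 7 rose and 2 fell, with Nr4a1 (1.17), Egr1 (1.09) and Fos (0.79) among the risers. At the same limit these were at 0.59, 1.09 and 0.84. The part of cell stress in other changes was not tested. The sex of the libraries differs between the groups, and with sex as a term 10425 genes were called, 10139 of them among the 11943.

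The Insm1 mutants of the same run gave a comparison with no shared controls. The muscle genes rose there too: the median of the 147 genes was 4.01 for Insm1 against 5.83 for Tead1/2. The difference between the effects was tested as an interaction, which called 910 of 24567 genes (3.70%). Of the 147 muscle genes 72 were called, 71 with the more positive change under Tead1/2 deletion. The count of 910 was 321 without Insm1 control 2 and 194 without Tead1/2 control 2. Myod1 differed by 2.37 (FDR 0.00211), Mymk by 1.56 (FDR 0.00767) and Ttn by 1.69 (FDR 0.0134), while for Myog the difference was 0.54 and did not pass (FDR 0.480). Ttr fell under Tead1/2 deletion and had a log2 change of 0.00 under Insm1 deletion (difference -7.89, FDR 0.0026). Chrnb4 had 0.48 under Insm1 deletion (FDR 0.196), a difference of -3.73 (FDR 0.00233). Otx1 fell under both, by 5.93 and by 3.19 (difference -2.74, FDR 0.00104). Tead2 fell by 1.95 and by 0.41 (difference -1.54, FDR 0.000963), and Tead4 rose by 6.01 and 4.88 (difference 1.13, FDR 0.0155). Nrg1 fell under both deletions, by 2.60 and 2.10, and the difference was not called (-0.50, FDR 0.367). Nor was it called for Yap1, which rose by 1.13 and 1.00 (0.13, FDR 0.559), or Tead3, which rose by 0.33 and 0.34 (-0.01, FDR 0.974).

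**Figure D4:**
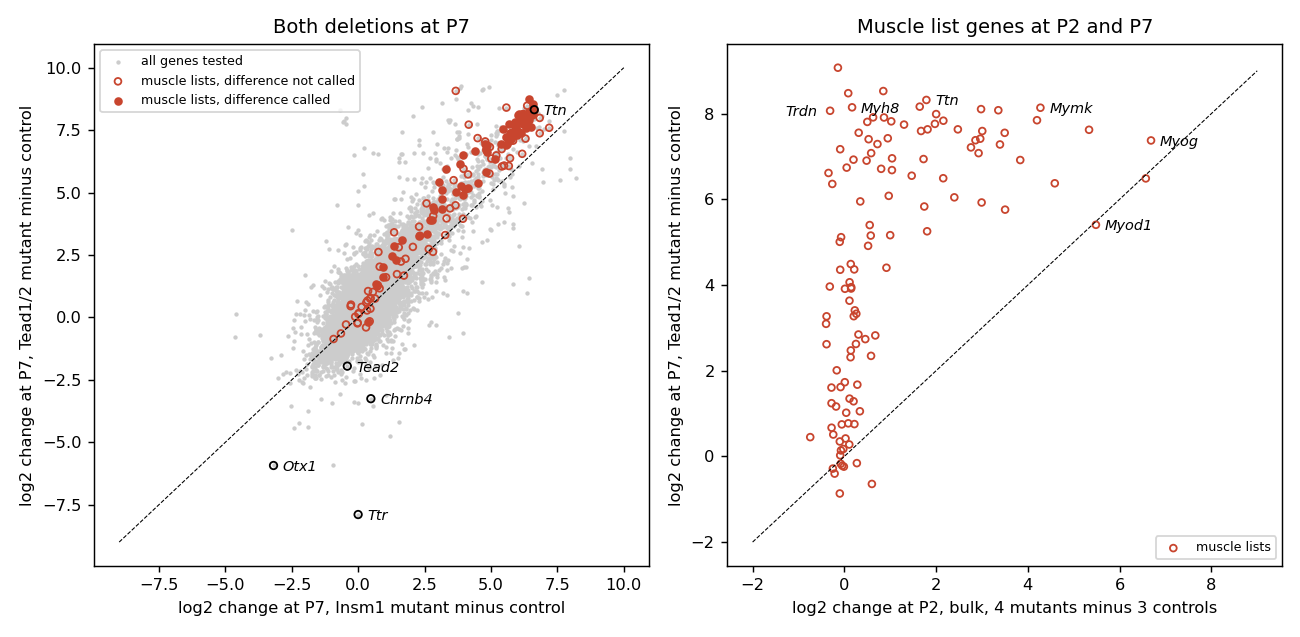
Left, log2 change of each gene tested at P7 under Insm1 deletion (x axis) and Tead1/2 deletion (y axis), with muscle list genes in red, filled where the difference between the deletions was called; right, log2 change of muscle list genes in P2 bulk RNA (x axis, all 4 mutants against 3 controls, from the edgeR fit) and in the P7 sums (y axis). The dashed line marks equal values; most muscle genes lie above it in both panels, with Ttr far below it on the left.

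Bulk RNA of other Tead1/2 animals at P2 gave the same contrast 5 days earlier in another assay. It held 3 controls and 4 mutants with 28066643 to 64518749 expected counts each. With all 7 libraries edgeR called no gene (4051 at an unadjusted p under 0.05), while DESeq2 called 956. The 119 muscle list genes tested had a median log2 change of 0.31, and 88 were above 0. Myog was at 0.198, 0.237 and 0.319 CPM in controls, at 29.0, 36.7 and 34.4 CPM in mutants 1 to 3, and at 0.411 CPM in mutant 4 (log2 change 6.69, FDR 0.0883). Ttn was at 14.2, 16.1 and 15.4 CPM in controls, 59.5, 69.7 and 70.2 CPM in mutants 1 to 3, and 10.2 CPM in mutant 4 (1.79, FDR 0.112). Tead2 was at 23.3, 25.6 and 22.3 CPM in controls, 19.4, 19.4 and 17.3 CPM in mutants 1 to 3, and 25.7 CPM in mutant 4. For these genes mutant 4 thus lay near or beyond the controls.

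The following P2 values are from edgeR's fit to all 7 libraries, in which none passed the test. Myod1 (5.48), Actc1 (5.33), Mymk (4.27), Klhl41 (3.83), Myh3 (2.98) and Tead4 (1.42) had positive log2 changes, while Ryr1 (0.20), Trdn (-0.31), Myh7 (0.08) and Myh8 (0.17) were closer to 0. The 24 replication genes had a median of 0.08 and the 20 granule progenitor genes one of -0.02. Cdkn1c was at 0.80, Cdkn1a at -0.24 and Trp63 at -0.01. Otx1 (-2.20), Chrna3 (-1.09) and Nhlh1 (-0.60) had negative changes, Ttr was at 3.40 and Nrg1 at -0.08. Without mutant 4 the values were 7.08 for Myog, 5.86 for Myod1, 2.12 for Ttn, 1.71 for Tead4 and -3.49 for Otx1, and the median of the 118 muscle list genes tested was 0.38. In those 6 libraries 403 of 20207 genes passed the threshold upward (1.99%) and 254 downward (1.26%), and 44 muscle list genes did. That library was singled out by the levels of these same genes, so the values without it are a description and support nothing. Age, assay and animals differ between P2 and P7, and the difference between the stages was not tested.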

How the data were processed

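The authors deposited raw UMI counts per barcode and gene at P7 from Parse Evercode WT v3 libraries, per the labels' protocols and file headers. The gene tables name build GRCm39. What aligned the P7 reads, and whether introns or strand counted, was not given in the sources used here. Deposited P2 tables hold RSEM expected counts, per the file names, with STAR 2.7.9a and RSEM 1.3.3 in the submitters' processing notes, and they were rounded and summed by symbol here, without 92 spike-in rows. The name of each P2 table gives the other deletion than the labels give for its columns, and samples were taken by column name, so which deletion a P2 library carries rests on those names. In edgeR's fit to all 7 P2 libraries the log2 change was 0.49 for Insm1 (FDR 0.0883) and -0.22 for Tead2 (FDR 0.313). In the Insm1 mutants at P7 Insm1 was at -2.63. Whether the P2 names are right was not tested. Library groups at P7 were read from the library names in the cell metadata. Counts were summed by gene name over barcodes with at least 1000 UMIs and 500 genes. Doublets were not removed. edgeR 4.0.16 (TMM, filterByExpr, quasi-likelihood test, R 4.3.3) fitted all 10 P7 libraries in 4 groups, with Benjamini-Hochberg adjustment over 24567 genes and calls under an FDR of 0.05. CPM divides by library totals multiplied by the TMM factors. DESeq2 1.42.0, other scalings, filters, barcode limits and terms for sex and dissection were alternatives. On simulated data 49 of 50 genes changed by a log2 of 1 and 30 of 50 changed by 0.5 were recovered, with 13 false calls among the unchanged of 24109 genes. There far fewer genes changed than were called at P7, and rises and falls were balanced. Scaling and false calls under changes as wide and one-sided as those at P7 were not tested. The genes named were the TEAD genes, the 12 largest rises and falls by fold, the 5 largest by CPM, up to 4 called genes per list and defining members that were not called. Other list members given as examples were chosen after their values were seen. The members, lists and tests were chosen with earlier results of these data known. Some results are not reported here.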

Additional observations from a re-analysis of the deposited data

Results flagged for a closer look

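For 50 named genes the Tead1/2 and Insm1 effects at P7 differed by the interaction test (edgeR, FDR under 0.05), among 910 genes called in all (3.70% of 24567). The values are log2 differences, the Tead1/2 effect minus the Insm1 effect, and no explanation was weighed for any of them.

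Of the TEAD genes and their partners and targets, the change was more positive under Tead1/2 deletion for Tead1 (0.62), Tead4 (1.13), Wwtr1 (1.14), Ccn2 (1.81), Myof (1.49) and Igfbp3 (1.30), and more negative for Tead2 (-1.54). Myogenic regulators and fusion genes with a more positive change were Myod1 (2.37), Cdh15 (2.61) and Mymk (1.56). Contractile genes were Myom2 (1.95), Myh8 (2.08), Myh3 (1.57), Myh6 (2.45), Acta1 (1.83), Tnnt2 (1.77) and Tnnt3 (1.93), and the titin and Z disc group held Ttn (1.69), Myot (1.80), Xirp1 (2.11), Klhl31 (1.77) and Mypn (1.49). Genes of calcium handling, the endplate and metabolism were Trdn (1.92), Atp2a1 (1.69), Hrc (1.64), Chrnd (2.30), Chrna1 (2.01), Colq (1.55) and Art1 (1.54).

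Among the largest falls, a more negative change under Tead1/2 deletion was found for Ttr (-7.89), Htr2c (-4.95), Chrnb4 (-3.73), Otx1 (-2.74), Chrna3 (-2.46), A730046J19Rik (-2.01), Gm17322 (-1.98), Mfap4 (-1.89) and Cyp11a1 (-1.87). Genes of several other lists with a more positive change were Trp63 (1.25), Gadd45a (0.88), Ccng1 (0.93), Igf2 (1.31) and Ogn (1.60), and Mcm5 (-0.75) was more negative. Neuronal genes with a more negative change were Grin2c (-2.05), Gad1 (-0.65) and Gria2 (-0.60). Grin2c rose under both deletions, by 2.02 and by 4.07 under Insm1 deletion. The imprinted RNAs were H19 (1.40), Mirg (1.64) and Rian (1.64). The count of differences depended on the libraries and the term for sex, as given in the next section.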

How the results depend on the processing

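The count of 11943 genes called at P7 was within 1.5 times of itself under all alternatives but 1: with barcodes of at most 10000 UMIs it was 6976 of 19019 genes tested, fewer genes and fewer UMIs, and the cause was not tested beyond that. Leaving out 1 library at a time gave 8759 to 11891. Under library totals 64.3% of calls were upward (7442 of 11581) against 53.2%. The 910 differences between the deletions became 2156 with DESeq2 (1001 higher and 1155 lower) and 230 with a term for sex, and 194 to 1193 when 1 library was left out; the cause was not tested. The P2 count of 0 with 7 libraries became 956 with DESeq2, 1318 with no filter on low counts and 0 to 657 without 1 library, 657 without mutant 4. Of 166 named genes, 134 were called under every alternative run and 32 lost the call under at least 1. Of the 32, 2 reversed with barcodes of at most 10000 UMIs, Gad1 (0.062, FDR 0.734) and Gadd45a (-0.059, FDR 0.795). With a term for sex 12 lost the call: Junb, Kirrel2, Gad1, Lhx9, Meis2, Cx3cr1, Vwf, Pdgfrb, Kl, Hba-a1, Hba-a2 and Hbb-bs. Without control 1, 17 lost the call, and without control 2, 14. Of 41 list medians, 3 were counted as unchanged under every alternative and 38 as moved under at least 1. With barcodes of at most 10000 UMIs 29 medians moved, with library totals 12, and without control 1 also 12.

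Replicate numbers were not used to pair the samples, which come from different animals. Same-numbered deviations correlated at r = -0.123 and -0.0298 at P7 and at -0.0624, -0.0716 and -0.00597 at P2, none above 0.1. At P7 the deviations of the 2 controls from their mean are mirror images, so these values cannot decide whether the numbers pair the libraries. At P7 numbers 1 and 2 also share the labelled dissection, all lobules for 1 and without IX and X for 2. With the replicate number as a block 11085 genes were called at P7, 728 differed between the deletions and 244 were called at P2. Fitted changes of genes with 0 or 1 control UMI depend on the prior count. Myf6 and Ankrd1 could not be tested with barcodes of at most 10000 UMIs.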

Other observations

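The 3 gene groups below were chosen after their values were seen, so their counts describe the libraries and test nothing.

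Imprinted genes, which are expressed from 1 parental allele and include many regulators of fetal growth, were higher in the mutants. Of 47 tested, 28 rose and 6 fell, 21 rose at least 2-fold, and the median log2 change was 0.92 against 0.06 over all genes. Their summed level was 3708 and 3644 CPM in controls and 12160, 13020 and 10180 CPM in mutants. H19, a noncoding RNA that muscle keeps after birth, rose from 10.7 and 13.6 CPM to 1708, 1790 and 1278 CPM (7.04 ± 0.22, FDR 7.80e-09; 4.46 with barcodes of at most 10000 UMIs). From the Dlk1-Meg3 region, Dlk1 rose from 0.527 and 0.338 CPM to 29.5, 29.5 and 21.4 CPM (5.92, or 2.52 with barcodes of at most 10000 UMIs), Meg3 from 62.8 and 66.7 CPM to 1230, 1189 and 836 CPM (4.07), Rian by 5.11 and Mirg by 5.62. Ddc (4.79), Grb10 (3.32) and Peg3 (1.09) rose too, beside Igf2 and Cdkn1c. Under Insm1 deletion the list median was 0.62. At P2, with all 7 libraries, edgeR called none, and H19 was at 1.496 (FDR 0.106) and Meg3 at -0.56 (FDR 0.0611).

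Ionotropic glutamate receptor genes fell in part. Of 18 tested, 8 fell and 2 rose (median -0.14). The AMPA subunit Gria4 went from 1189 and 1188 CPM to 420, 291 and 385 CPM (-1.70 ± 0.14, FDR 4.06e-06), the kainate subunit Grik2 from 3493 and 3795 CPM to 1374, 1062 and 1115 CPM (-1.62), and the NMDA subunit Grin2b from 413 and 495 CPM to 184, 114 and 147 CPM (-1.61). Gria2 fell by 1.28. With barcodes of at most 10000 UMIs the list median was 0.00.

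Replication-dependent histone genes, which are expressed in S phase, fell with the other replication genes. Of 57 tested, 36 fell and 1 rose (median -1.15), and their summed level was 433 and 385 CPM in controls and 88.2, 168 and 229 CPM in mutants. The linker histones H1f1 (-1.86), H1f3 (-1.82) and H1f5 (-1.57) were among the largest falls. Mutant 1, with the fewest UMIs, had the lowest sum. Members of this family are near-identical copies whose shared reads cannot be assigned from the sums.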
